A study of Mus musculus with 17 samples.

Results

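The 8 MHC class I presentation genes were followed in sorted macrophages of the mouse synovium. The members were the rows of the joint count table with the symbols H2-K1, H2-D1, B2m, Tap1, Tap2, Tapbp, Nlrc5 and H2-T23. All 8 were found among 22859 genes, and all 8 passed the filter on low counts together with 15272 genes in all. RNA was sequenced from 17 libraries in 6 groups, 3 macrophage subsets each taken from control mice and from mice culled 8 h after intravenous immune complexes (IC; ovalbumin bound by antibody, per the study's methods). The subsets were LYVE1+CX3CR1+ (titled Lyve1), MHCII+CD11c- (titled IAIE) and MHCII+CD11c+ (titled CD11c) macrophages, sorted from collagenase-digested synovium. Every group had 3 libraries except MHCII+CD11c+ after IC, which had 2. All mice, controls included, were adult Fcgr2b-KO animals, which lack the inhibitory receptor for IgG, and no wild-type library was analysed here. The labels titled the controls Healthy and did not say whether libraries of one group came from separate animals, so p-values measure the spread between libraries, which may be technical.

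MHC class I molecules display short peptides from inside the cell to CD8 T cells and are made by almost every nucleated cell. H2-K1 and H2-D1 encode the classical heavy chains and H2-T23 the non-classical heavy chain Qa-1, each of which pairs with the light chain encoded by B2m. Tap1 and Tap2 form the transporter that moves peptides into the endoplasmic reticulum, Tapbp (tapasin) holds empty class I molecules at that transporter, and Nlrc5 is the transactivator of class I genes. Macrophages use the pathway alongside MHC class II, which presents peptides to CD4 T cells.

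Library totals ran from 2301913 to 7248939 counts, and the lowest count of any member in any library was 65, so none was limited by detection. Members together took 0.389% to 0.894% of the counts of a library. The 8 macrophage markers summed to 7758 to 18770 CPM (counts scaled to a common library size with edgeR's TMM factors) in the 17 libraries, and 7 of the 8 were lower in controls of the MHCII+CD11c+ than of the MHCII+CD11c- subset. Library 2 of the MHCII+CD11c+ controls stood apart: it had 382 CPM of Lyve1, against 29.8 and 25.3 CPM in libraries 1 and 3. In comparisons with that group, calls of members that change without it are given, as are calls of other named genes lost without it. Fcgr2b was counted at 69.3 to 248 CPM in every library, and gene-level counts do not show which exons were read, so the genotype was not checked.

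In the mm10 genome (GRCm38, GENCODE M21 positions), 6 of the 8 genes lie within the MHC on chromosome 17: Tapbp (chr17:33915899-33929292, plus strand), H2-K1 (chr17:33996017-34000347, minus), Tap1 (chr17:34187553-34197225, plus), Tap2 (chr17:34203527-34216321, plus), H2-D1 (chr17:35262730-35267499, plus) and H2-T23 (chr17:36029773-36032855, minus). B2m lies at chr2:122147686-122153083 (plus) and Nlrc5 at chr8:94434356-94527272 (plus). H2-K1, H2-D1, H2-T23 and the H2-Q and H2-T genes are near-identical in parts, so their reads may be split or lost and their separate values are uncertain. Tap1 shares 212 exon bases with Psmb9 on the opposite strand, and Tapbp shares 149 exon bases with Zbtb22 on its own strand; whether the counting used strand is not given in the sources used here.

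RefSeq promoter windows, from 250 bases before to 50 after a start site in GRCm38.p6, were matched for 6 members; Tap2 and Nlrc5 had none. The 200 bases before the start site are shown for a heavy chain, for the light chain and for Tap1, since class I promoters share short elements to which the complex containing NLRC5 binds and since Tap1 differed most between the subsets. Capitals mark every match, on either strand, to 5 motifs: the kappaB core GGGATTCCC, the interferon element GAAANNGAA, the STAT element TTCNNNGAA, the cyclic AMP element core TGACG and the Y box ATTGG.
H2-K1, chr17:34000348-34000547, minus strand: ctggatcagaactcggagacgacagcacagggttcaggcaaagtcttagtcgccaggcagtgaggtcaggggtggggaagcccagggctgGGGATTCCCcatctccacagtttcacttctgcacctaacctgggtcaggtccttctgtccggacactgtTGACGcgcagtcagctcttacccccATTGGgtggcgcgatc
B2m, chr2:122147487-122147686, plus strand: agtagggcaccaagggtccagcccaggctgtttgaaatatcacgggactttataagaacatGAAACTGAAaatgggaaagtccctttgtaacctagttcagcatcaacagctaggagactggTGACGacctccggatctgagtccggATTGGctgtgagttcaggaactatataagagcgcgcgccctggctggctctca
Tap1, chr17:34187356-34187555, plus strand: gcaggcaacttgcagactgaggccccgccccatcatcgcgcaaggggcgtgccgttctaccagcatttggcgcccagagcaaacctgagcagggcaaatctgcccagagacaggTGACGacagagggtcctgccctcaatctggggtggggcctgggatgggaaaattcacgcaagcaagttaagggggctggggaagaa
In H2-K1 the kappaB core stood 110 bases, the TGACG core 41 bases and the Y box 16 bases before the start site shown; RefSeq gives a second start site, from which these lie 124, 55 and 30 bases upstream. B2m held an interferon element at 139, a TGACG core at 78 and a Y box at 53 bases before its start. The H2-D1 window held the kappaB core, TGACG and ATTGG at 170, 101 and 76 bases before its start, and 166 of 190 aligned bases (87.4%) were identical to H2-K1. In H2-K1, H2-D1 and B2m the Y box began 25 bases after the TGACG core, a spacing that 19 of 32851 windows of all genes (0.0578%) held; it was picked after these windows were read. Tap1 held TGACG 86 bases before its start and a Y box only on the other strand, outside the stretch shown, and H2-T23 an interferon element and a Y box, both on the other strand; neither had the spaced pair, nor did Tapbp, which held only a Y box. No member window held the STAT element. Among all windows, 0.353% held the kappaB core, 8.56% the interferon element, 8.30% the STAT element, 20.8% TGACG and 37.4% the Y box. Only these exact letters were searched. A window without a match, such as those of H2-K1 and H2-D1 for the interferon element, may hold another form of it. A match is a run of letters and was not tested as a binding site.

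Per kb of exon, the order of the members was led in all 6 groups by B2m, then H2-D1, then H2-K1. In LYVE1+CX3CR1+ controls B2m stood at 1358 ± 132 CPM per kb (SD, n = 3 here and for the other control groups), H2-D1 at 721 ± 118 and H2-K1 at 281 ± 31.5. Tapbp followed at 74.1 ± 6.87 and H2-T23 at 46.2 ± 7.90 CPM per kb. Tap2 (8.78 ± 1.36), Tap1 (6.96 ± 0.615) and Nlrc5 (6.33 ± 1.46) were lowest, and Tap2 was above Tap1 in every library of this group. By group means, Tap2 was above Tap1 per kb in both LYVE1+CX3CR1+ groups, and Tap1 was above Tap2 in all 4 MHCII+ groups. Over the 17 libraries Tap1 varied most, 6.83-fold between the lowest and the highest CPM, then Nlrc5 at 6.04-fold, while the other 6 members varied 2.63-fold to 3.57-fold.

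**Figure D1:**
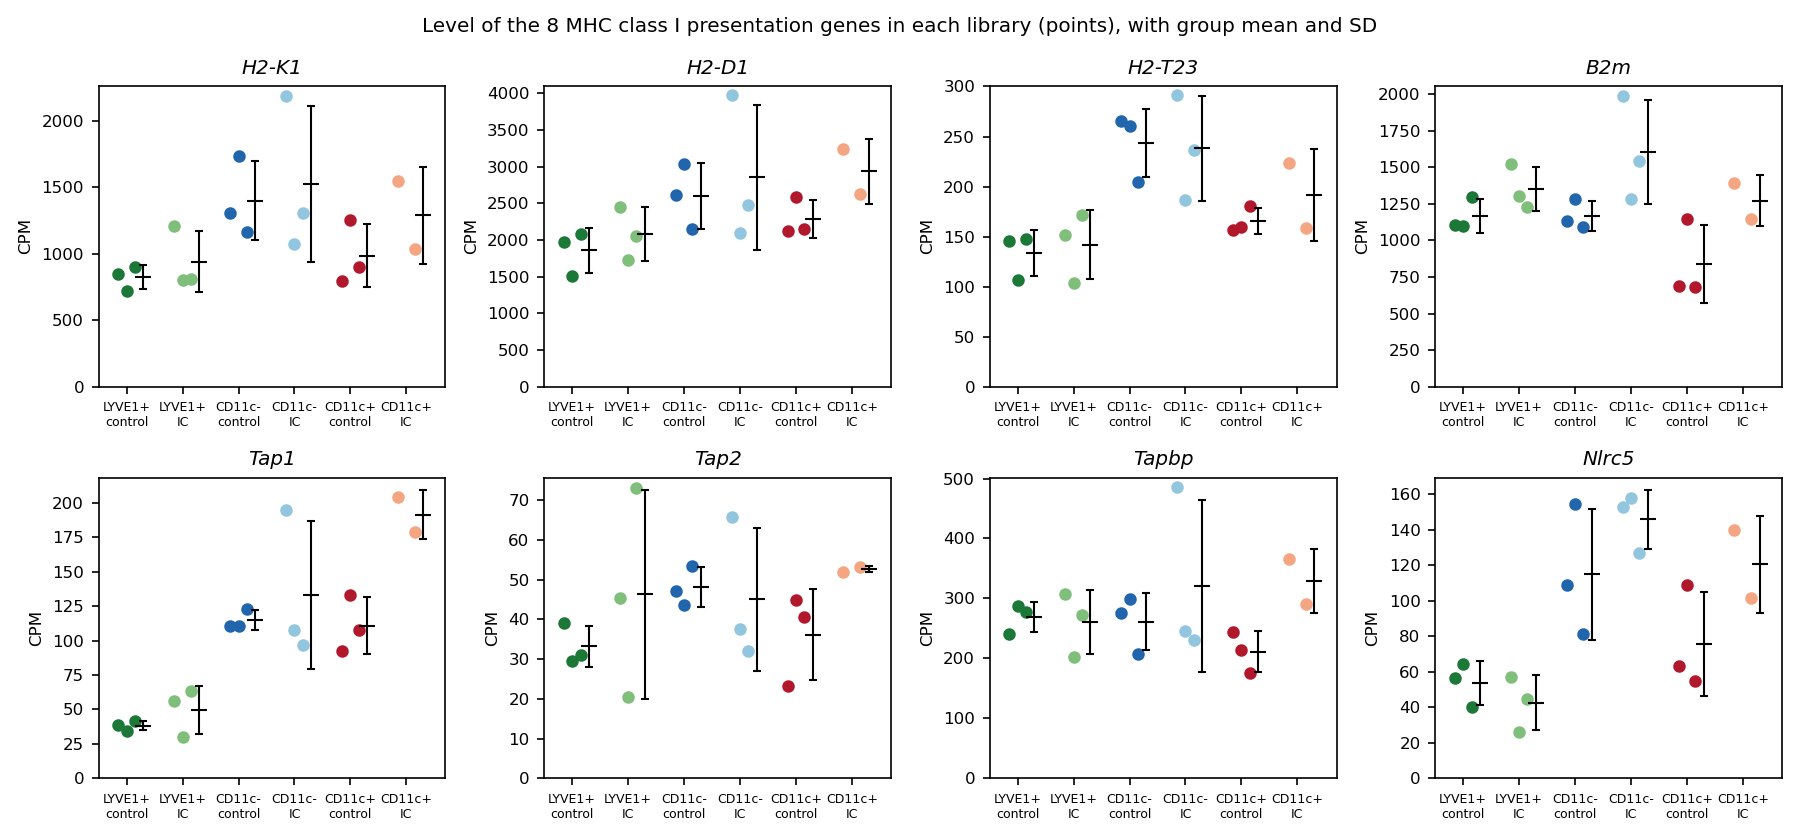
CPM of each of the 8 class I presentation genes (vertical axis, 1 panel per gene, each with its own scale) in the 6 groups (horizontal axis); points are libraries, with the group mean and SD beside them. Every LYVE1+CX3CR1+ library had less Tap1 (29.9 to 63.1 CPM) than every MHCII+ library (92.5 to 204 CPM), while B2m and Tapbp overlapped between the subsets.

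The first question was how the subsets differ without challenge. Tap1 was lower in LYVE1+CX3CR1+ macrophages than in both MHCII+ subsets, and H2-T23 was lower than in MHCII+CD11c- macrophages. B2m and Tapbp overlapped in that comparison. Against MHCII+CD11c- cells, 2 of 8 members passed edgeR's quasi-likelihood test at an adjusted p of 0.05, both lower, against 1.56% of all genes tested called in either direction and 1.22% called lower. Against MHCII+CD11c+ cells 1 of 8 passed, also lower, where 15.2% of all genes were called and 7.4% were lower. The median log2 fold change of the 8 members was -0.65 and -0.28 in these comparisons, beside -0.00 and 0.05 over all genes. The comparisons share the LYVE1+CX3CR1+ controls. The share of all genes without overlap was not counted between control groups, so a lack of overlap there describes the libraries and is not a result. In bulk samples fewer cells of a type and less RNA per cell cannot be told apart.

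Tap1, the transporter subunit that varied most, was at 38.4, 34.6 and 41.3 CPM in LYVE1+CX3CR1+ controls. It was at 111, 111 and 123 CPM in MHCII+CD11c- controls, and at 92.5, 133 and 107 CPM in MHCII+CD11c+ controls. All 3 LYVE1+CX3CR1+ libraries were below all 6 others, and the MHCII+ subsets overlapped. The log2 difference of LYVE1+CX3CR1+ from MHCII+CD11c- was -1.59 ± 0.26 (SE; 3.0-fold lower; edgeR adjusted p = 0.00142). From MHCII+CD11c+ it was -1.54 ± 0.26 (2.91-fold lower; edgeR adjusted p = 0.000158). Between the MHCII+ subsets Tap1 differed by -0.05 ± 0.25 on the log2 scale, with a 95% interval of -0.57 to 0.48 (edgeR adjusted p = 0.948). The separation held in the challenged libraries, which these tests of controls did not compare: LYVE1+CX3CR1+ libraries after IC had 56.2, 29.9 and 63.1 CPM of Tap1, and the 5 MHCII+ libraries after IC had 96.9 to 204 CPM.

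Tap2, its partner in the transporter, did not separate the subsets in that way. It was at 39.1, 29.5 and 31.1 CPM in LYVE1+CX3CR1+ controls, at 47.1, 43.7 and 53.5 CPM in MHCII+CD11c- controls and at 23.2, 44.8 and 40.5 CPM in MHCII+CD11c+ controls. LYVE1+CX3CR1+ lay below MHCII+CD11c- in every library and overlapped with MHCII+CD11c+. Neither difference passed (log2 -0.53 ± 0.36 and -0.12 ± 0.36; edgeR adjusted p = 0.752 and 0.885).

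The ratio of Tap1 to Tap2 counts per kb, a measure added after these levels were seen, was 0.679, 0.811 and 0.917 in LYVE1+CX3CR1+ controls. It was 1.62, 1.75 and 1.59 in MHCII+CD11c- controls and 2.76, 2.05 and 1.83 in MHCII+CD11c+ controls. The 3 groups did not overlap, with LYVE1+CX3CR1+ lowest and MHCII+CD11c+ highest. No test is given, since these levels prompted the ratio. The ratio of Tap1 to Psmb9, the inducible proteasome subunit beside it on the chromosome, overlapped between the control groups (1.13 to 2.27 in LYVE1+CX3CR1+, 1.63 to 4.13 in MHCII+CD11c- and 2.33 to 3.55 in MHCII+CD11c+).

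**Figure D2:**
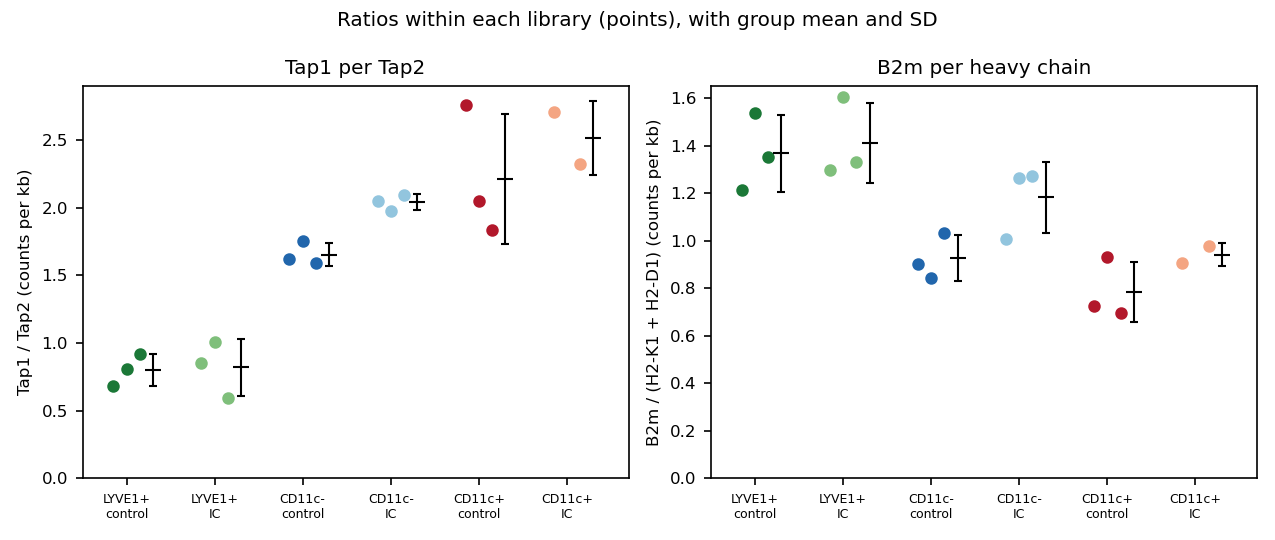
Ratios of counts per kb in each library by group, Tap1 to Tap2 in the left panel and B2m to the sum of H2-K1 and H2-D1 in the right panel; points are libraries, with the group mean and SD beside them. The Tap1 to Tap2 ratio was at most 1.01 in the 6 LYVE1+CX3CR1+ libraries and at least 1.59 in the 11 MHCII+ libraries.

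H2-T23, which encodes Qa-1, was at 146, 107 and 148 CPM in LYVE1+CX3CR1+ controls. It was at 266, 260 and 205 CPM in MHCII+CD11c- controls and at 156, 160 and 180 CPM in MHCII+CD11c+ controls. MHCII+CD11c- was highest, and no pair of the 3 control groups overlapped. The log2 difference of LYVE1+CX3CR1+ from MHCII+CD11c- was -0.87 ± 0.21 (1.83-fold lower; edgeR adjusted p = 0.0338). That call was lost when any of the 3 LYVE1+CX3CR1+ controls or MHCII+CD11c- control 1 or 2 was left out (adjusted p = 0.0647 to 0.228) and at equal depth (0.0818). The differences from MHCII+CD11c+ did not pass (LYVE1+CX3CR1+ log2 -0.31, edgeR adjusted p = 0.395; MHCII+CD11c- against it, 0.111).

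Nlrc5, the transactivator, was at 56.4, 64.6 and 40.2 CPM in LYVE1+CX3CR1+ controls. In MHCII+CD11c- controls it was at 109, 154 and 81.3 CPM, and in MHCII+CD11c+ controls at 63.0, 109 and 54.8 CPM. All 3 LYVE1+CX3CR1+ libraries were below all 3 MHCII+CD11c- libraries, and MHCII+CD11c+ overlapped with both. The log2 difference of LYVE1+CX3CR1+ from MHCII+CD11c- was -1.10 ± 0.29 (95% interval -1.71 to -0.49), which missed the threshold in edgeR (adjusted p = 0.0604). It passed in 11 of the 26 alternatives that gave a value, DESeq2 (0.0119) and limma-voom with quality weights (0.00108) among them, and the highest adjusted p was 0.337.

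The classical heavy chains had their highest control means in MHCII+CD11c- macrophages. H2-K1 was at 851, 724 and 904 CPM in LYVE1+CX3CR1+ controls, at 1305, 1734 and 1162 CPM in MHCII+CD11c- controls and at 799, 1252 and 904 CPM in MHCII+CD11c+ controls. H2-D1 was at 1978, 1514 and 2086 CPM, at 2611, 3043 and 2147 CPM and at 2130, 2588 and 2149 CPM in the same order. LYVE1+CX3CR1+ libraries were below MHCII+CD11c- libraries for both genes without overlap, and MHCII+CD11c+ overlapped with MHCII+CD11c-. The LYVE1+CX3CR1+ differences from MHCII+CD11c- were -0.76 ± 0.25 for H2-K1 and -0.48 ± 0.20 for H2-D1 on the log2 scale and did not pass (edgeR adjusted p = 0.187 and 0.363). H2-K1 passed in 3 of 27 alternatives: DESeq2 (adjusted p = 0.0414), only the groups compared (edgeR, 0.0263) and the replicate block (edgeR, 0.0202). It did not pass in the other 24, where the edgeR adjusted p reached 0.547. With the counts of both genes summed, which sets aside reads split between them, the log2 difference was -0.57 (edgeR adjusted p = 0.264). H2-K1 took 27.3% to 36.3% of those summed counts over the 17 libraries.

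B2m, the light chain, did not follow the heavy chains. It was at 1103, 1101 and 1299 CPM in LYVE1+CX3CR1+ controls, at 1130, 1286 and 1089 CPM in MHCII+CD11c- controls and at 686, 1145 and 682 CPM in MHCII+CD11c+ controls. The first 2 groups overlapped, with a log2 difference of -0.00 ± 0.19 (95% interval -0.39 to 0.39; edgeR adjusted p = 1), and 2 of the 3 MHCII+CD11c+ libraries lay below all the rest. The third, control 2, is the library with high Lyve1. LYVE1+CX3CR1+ exceeded MHCII+CD11c+ by 0.48 ± 0.19 on the log2 scale, which did not pass (edgeR adjusted p = 0.0977). Without that library the difference was 0.77 and passed (edgeR adjusted p = 0.00368).

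Relative to the heavy chains, B2m was highest in LYVE1+CX3CR1+ macrophages. The ratio of B2m to summed H2-K1 and H2-D1, in counts per kb and also added after the levels were seen, was 1.21, 1.54 and 1.35 in LYVE1+CX3CR1+ controls. It was 0.902, 0.845 and 1.03 in MHCII+CD11c- controls and 0.727, 0.931 and 0.695 in MHCII+CD11c+ controls. LYVE1+CX3CR1+ lay above both other groups, which overlapped, and again no test is given. The mean ratio of H2-K1 to H2-D1 ran from 0.374 to 0.471 over the 6 groups.

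Tapbp, the tapasin gene, was at 241, 288 and 278 CPM in LYVE1+CX3CR1+ controls. It was at 276, 300 and 208 CPM in MHCII+CD11c- controls and at 244, 215 and 176 CPM in MHCII+CD11c+ controls. The 3 groups overlapped, and neither LYVE1+CX3CR1+ difference passed (log2 0.04 ± 0.24 and 0.35 ± 0.24; edgeR adjusted p = 0.994 and 0.399).

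Between the MHCII+ subsets in controls all 8 members had negative estimates (MHCII+CD11c+ minus MHCII+CD11c-; 7 of 8 at equal depth and with surrogate variables), with a median of -0.45 beside -0.03 over all genes. None of the 8 passed edgeR's test, where 8.66% of all genes were called. In DESeq2 0 passed, where 1953 of 15246 genes were called. In limma-voom with quality weights 1 passed, where 1733 of 15272 genes were called. In edgeR 2 of the 8 had an unadjusted p under 0.05, beside 21.4% of all genes. H2-T23 was one of the 2, with no overlap (log2 -0.56 ± 0.21, edgeR adjusted p = 0.111). The other was B2m (log2 -0.48 ± 0.19, edgeR adjusted p = 0.133). Without MHCII+CD11c+ control 2, B2m (log2 -0.77, edgeR adjusted p = 0.00652) and Nlrc5 (log2 -0.96, 0.0449) passed.

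**Figure D3:**
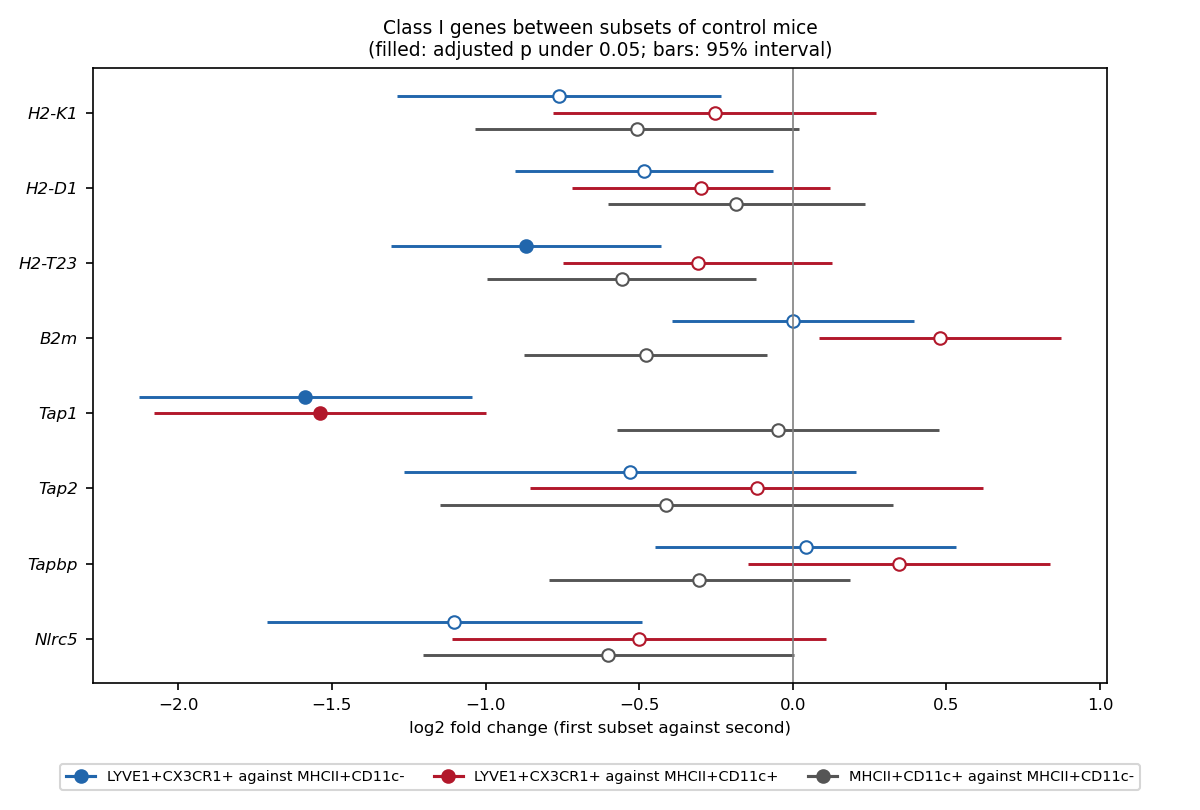
Log2 differences of the 8 members between subsets in controls (horizontal axis) with 95% intervals from edgeR, 1 row per gene and 1 colour per pair of subsets, filled where the adjusted p was under 0.05; each group had 3 libraries. Tap1 was 3.0-fold and 2.91-fold lower in LYVE1+CX3CR1+ than in the MHCII+ subsets, and the intervals of Tapbp include 0 in the LYVE1+CX3CR1+ comparisons.

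Dendritic cell and neutrophil markers moved with the subsets, while the 4 monocyte markers did not move together. The 5 dendritic cell markers summed to 11.3 to 14.9 CPM in LYVE1+CX3CR1+ controls, to 19.97 to 71.6 CPM in MHCII+CD11c- controls and to 83.0 to 147 CPM in MHCII+CD11c+ controls, with Flt3, Xcr1 and Ccr7 at or under the floor of 3 counts in all LYVE1+CX3CR1+ controls. The 5 neutrophil markers summed to 0 to 6.98, 0.334 to 134 and 63.7 to 229 CPM in the same order, and Ly6g, Retnlg and Cxcr2 were at or under that floor in all LYVE1+CX3CR1+ controls. The 4 monocyte markers summed to 464 to 721, 335 to 522 and 571 to 1166 CPM, and Ccr2 among them was at 18.3 to 38.1, 224 to 481 and 547 to 1152 CPM, while Ly6c2 was at or under the floor in all LYVE1+CX3CR1+ controls. Plac8 was at 0.54 to 1.42, 3.18 to 16.85 and 1.86 to 10.21 CPM in the same order. Vcan went the other way, at 441 to 682, 8.02 to 107 and 1.89 to 22.5 CPM, and made up most of the LYVE1+CX3CR1+ sum. The part of these cells in the members' differences was not tested.

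The next question was whether the members respond to circulating IC. No member passed edgeR's test in any subset. After IC in LYVE1+CX3CR1+ macrophages 0 of 8 members were called, where 0.963% of all genes were, and 0 had an unadjusted p under 0.05 (14.1% of all genes). In MHCII+CD11c- macrophages 0 of 8 were called against 0.701% of all genes, and 1 had an unadjusted p under 0.05 (9.99% of all genes). In MHCII+CD11c+ macrophages 0 of 8 were called against 0.216%, and 4 had an unadjusted p under 0.05 (5.21% of all genes). DESeq2 and limma-voom with quality weights also called 0 of 8 in each subset. The 95% intervals of the log2 fold changes ran from -0.95 to 1.21 over the members in LYVE1+CX3CR1+, from -0.82 to 0.94 in MHCII+CD11c- and from -0.27 to 1.36 in MHCII+CD11c+ macrophages.

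In MHCII+CD11c+ macrophages all 8 estimates were positive (7 of 8 without IC library 1), with a median of 0.57 beside 0.01 over all genes, and the median was 0.17 in both other subsets. Tap1 was at 204 and 179 CPM after IC in MHCII+CD11c+ macrophages, against 92.5, 133 and 107 CPM in controls. B2m was at 1394 and 1149 CPM, against 686, 1145 and 682 CPM. Both IC libraries were above all 3 controls for each gene, narrowly for B2m. Tap1 changed by 0.79 ± 0.28 (95% interval 0.21 to 1.36; edgeR adjusted p = 0.644) and B2m by 0.60 ± 0.21 (0.17 to 1.04; adjusted p = 0.618) on the log2 scale. H2-D1, Tap2 and Tapbp also did not overlap between the groups, and H2-K1, Nlrc5 and H2-T23 did. Over all genes 23.1% did not overlap in this contrast, 14.1% with the IC libraries higher. Tapbp (0.64 ± 0.26, edgeR adjusted p = 0.82) and Nlrc5 (0.67 ± 0.32, 0.958) were the other members with an unadjusted p under 0.05.

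Control 2 weighed on these values: without it B2m rose by 0.89 on the log2 scale (edgeR adjusted p = 0.0237), and it was the only member called. The IC libraries of this subset also held Lyve1, at 303 and 137 CPM, against 29.8 and 25.3 CPM in controls 1 and 3. Leaving out control 2 thus set IC libraries with more Lyve1 against controls with less. Lyve1 was also higher after IC in MHCII+CD11c- macrophages, at 2337, 1455 and 2458 CPM against 695, 1131 and 730 CPM. In LYVE1+CX3CR1+ macrophages it was at 3469, 3272 and 4116 CPM after IC and at 1727, 1801 and 2338 CPM in controls. Which B2m value lies closer to the response of the subset was not tested. Neutrophil and mast cell markers moved with the same contrast. The 5 neutrophil markers summed to 63.7 to 229 CPM in MHCII+CD11c+ controls and to 0.550 to 1.62 CPM after IC, with Ly6g, S100a9 and Retnlg at or under the floor after IC. The 3 mast cell markers summed to 0.425 to 3.40 CPM in controls and to 17.04 to 31.2 CPM after IC. Of the 8 macrophage markers 7 had positive estimates after IC, with a median of 0.82 on the log2 scale. An unadjusted p under 0.05 was found for 5 of them, beside 5.21% of all genes, though edgeR called none. Fcgr1 was at 17.02, 19.9 and 0.76 CPM in controls and at 108 and 91.3 CPM after IC, and Mertk at 15.5, 55.5 and 19.7 CPM against 86.1 and 52.0 CPM. Lyz2 of the same list overlapped, at 6113, 6276 and 7724 CPM in controls and at 7350 and 5546 CPM after IC. Fcgr1 was also higher after IC in MHCII+CD11c- macrophages, at 226, 324 and 300 CPM against 132, 76.0 and 140 CPM. Whether cell content or a response to IC lay behind the marker values was not tested, nor was their part in the members' values.

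In MHCII+CD11c- macrophages B2m was at 1984, 1283 and 1545 CPM after IC and at 1130, 1286 and 1089 CPM in controls. Library 2 after IC lay just under the highest control, and the other 2 lay above all controls. The log2 fold change was 0.46 ± 0.19 (95% interval 0.06 to 0.85; edgeR adjusted p = 0.391). IC library 1 of this subset held the highest CPM of all 17 libraries for H2-K1, H2-D1, B2m, Tapbp and H2-T23, for example 3979 CPM of H2-D1 against 2100 and 2486 CPM in libraries 2 and 3. All 8 members overlapped between IC and control in this subset, where 17.2% of all genes did not.

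In LYVE1+CX3CR1+ macrophages all 8 members also overlapped, where 21.6% of all genes did not. Tap2 was at 45.4, 20.5 and 73.0 CPM after IC, a range that spanned all 3 controls (29.5 to 39.1 CPM), with a log2 fold change of 0.47 ± 0.36 (edgeR adjusted p = 0.606). Nlrc5 was at 57.1, 26.1 and 44.4 CPM after IC and 56.4, 64.6 and 40.2 CPM in controls (log2 -0.33 ± 0.30, edgeR adjusted p = 0.687). These members had both lower and higher libraries after IC, and Tapbp was closest to no change (log2 -0.05 ± 0.24, 0.971).

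Differences between the subsets' IC responses were tested as interaction terms. For LYVE1+CX3CR1+ minus MHCII+CD11c-, 0 of 8 members were called where 0.0262% of all genes were, and 0 had an unadjusted p under 0.05 (7.54% of all genes). For LYVE1+CX3CR1+ minus MHCII+CD11c+, 0 of 8 were called where 0.0327% of all genes were, and 1 had an unadjusted p under 0.05 (8.02% of all genes). This was Nlrc5, with a difference of -1.002 ± 0.44 on the log2 scale (95% interval -1.91 to -0.09; edgeR adjusted p = 0.57). For MHCII+CD11c+ minus MHCII+CD11c-, 0 of 8 were called where 0% of all genes were, and 0 had an unadjusted p under 0.05 (3.25% of all genes). DESeq2 and limma-voom with quality weights called 0 of 8 in each of the 3 tests. The ratio of B2m to heavy chains had a mean of 1.41 after IC and 1.37 in controls in LYVE1+CX3CR1+ macrophages, 1.18 and 0.926 in MHCII+CD11c- and 0.942 and 0.785 in MHCII+CD11c+ macrophages, and its values overlapped between IC and control in each subset.

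**Figure D4:**
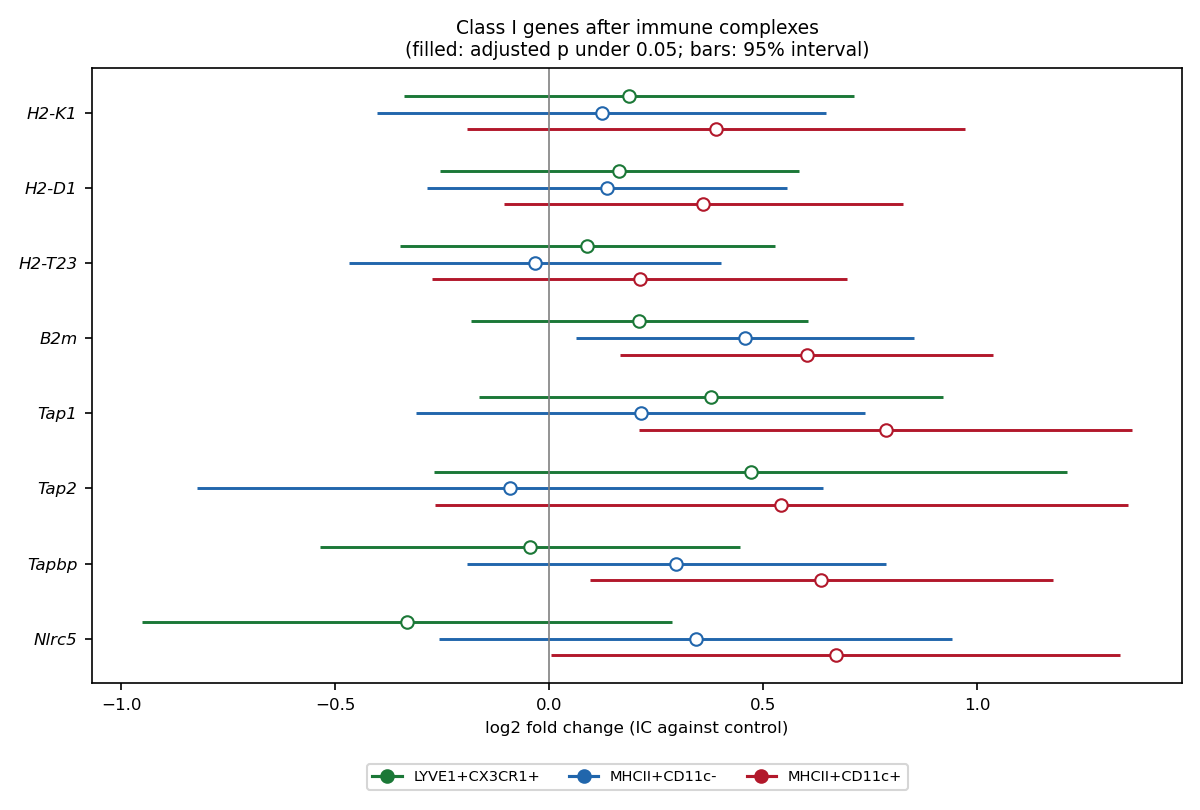
Log2 fold changes of the 8 members after IC against control (horizontal axis) with 95% intervals from edgeR, 1 row per gene and 1 colour per subset; groups had 3 libraries, except 2 for MHCII+CD11c+ after IC. All 8 estimates are above 0 in MHCII+CD11c+ macrophages, from 0.21 to 0.79, and none passed the adjusted threshold.

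Other genes of the pathway were read from lists of class I relatives, peptide supply, endoplasmic reticulum loading, regulators, class I receptors and, for comparison, class II. Among 11 genes of peptide supply (proteasome subunits, activators and trimming peptidases), 0 were called for LYVE1+CX3CR1+ against MHCII+CD11c- controls and 5 were lower against MHCII+CD11c+ controls, with list medians of -0.27 and -0.61. Of these 5, Psmb5, Psme1 and Psme2 were lost without LYVE1+CX3CR1+ control 3 (edgeR adjusted p = 0.0851, 0.193 and 0.157), and in 9, 4 and 7 of 26 alternatives in all. Psmb5 and Psme2 were also lost without MHCII+CD11c+ control 2 (edgeR adjusted p = 0.0912 and 0.15). The other 2 of the 5 were never lost. Psmb8, an inducible proteasome subunit, was at 64.9, 48.9 and 52.5 CPM in LYVE1+CX3CR1+ controls and at 124, 166 and 115 CPM in MHCII+CD11c+ controls (log2 -1.28 ± 0.27, edgeR adjusted p = 0.0013). Psma7, a constitutive subunit, was lower as well (log2 -1.22, edgeR adjusted p = 0.000867). None of the 11 was called after IC in any subset by edgeR. An unadjusted p under 0.05 was found for 2, 4 and 1 of them, beside 14.1%, 9.99% and 5.21% of all genes. The order is LYVE1+CX3CR1+, then MHCII+CD11c-, then MHCII+CD11c+.

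Of the 13 class I relatives tested, for LYVE1+CX3CR1+ controls 0 were called against MHCII+CD11c- controls, and 3 were higher and 2 lower against MHCII+CD11c+ controls. Without LYVE1+CX3CR1+ control 1, 2 of these 5, Mr1 (edgeR adjusted p = 0.0834) and H2-Q7 (0.0803), were lost. Leaving out MHCII+CD11c+ control 2 also ended the H2-Q7 call (edgeR adjusted p = 0.0507). Fcgrt, the heavy chain of the neonatal receptor that recycles IgG and also pairs with B2m, was at 730, 621 and 758 CPM in LYVE1+CX3CR1+ controls and at 116, 91.4 and 82.8 CPM in MHCII+CD11c+ controls (log2 2.86, edgeR adjusted p = 7.56e-10). The MHCII+CD11c+ level also lay below that of MHCII+CD11c- controls (log2 -2.64), which was 437 to 716 CPM. H2-T24 was higher in LYVE1+CX3CR1+ controls than in the MHCII+CD11c+ subset (log2 1.602, edgeR adjusted p = 0.000286) and H2-Q6 lower (log2 -2.50, adjusted p = 0.00597). H2-T22 was the only one of the 13 called after IC: in MHCII+CD11c- macrophages it was at 97.8, 78.1 and 94.7 CPM after IC and at 38.0, 59.7 and 31.1 CPM in controls (log2 1.06 ± 0.25, edgeR adjusted p = 0.0421). This call was lost in 14 of 26 alternatives, 11 of which left out a library, from one of 5 groups, with adjusted p up to 0.277.

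Among 20 regulators, Irf1, an interferon-responsive factor of class I transcription, was lower in LYVE1+CX3CR1+ controls than in those of the MHCII+CD11c- (log2 -0.92 ± 0.22, edgeR adjusted p = 0.0277) and the MHCII+CD11c+ subset (log2 -0.73 ± 0.22, adjusted p = 0.0236). It was at 235, 239 and 293 CPM in the first group, at 380, 598 and 475 CPM in the second and at 379, 407 and 488 CPM in the third, with no overlap between the first and the others. Leaving out a single library ended the call in 5 cases against MHCII+CD11c- (edgeR adjusted p up to 0.173) and in 3 against MHCII+CD11c+ (up to 0.115). Irf7, the factor that amplifies type I interferon, was the only regulator called after IC: in MHCII+CD11c+ macrophages it was at 166 and 102 CPM against 23.6, 17.3 and 44.6 CPM (log2 2.26 ± 0.40, edgeR adjusted p = 0.0244). This call was lost in 5 of 26 alternatives, among them without control 1 (edgeR adjusted p = 0.143), with only the groups compared (0.148) and without IC library 1. In controls Irf7 was lower in the MHCII+CD11c+ than in the MHCII+CD11c- subset (log2 -1.90, edgeR adjusted p = 0.00292), lost in 0 of 26 alternatives. Irf8 (0.0458) and Irf9 (0.0497) were also called lower there, and were lost in 18 and 19 of 26 alternatives. In MHCII+CD11c- macrophages Irf7 was at 190, 262 and 407 CPM after IC and at 137, 59.4 and 117 CPM in controls, which did not overlap and did not pass (log2 1.46 ± 0.36, edgeR adjusted p = 0.0752); this comparison was chosen after its values were seen.

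Class II showed larger separations than class I. All 7 class II genes were lower in LYVE1+CX3CR1+ controls than in each MHCII+ subset, with medians of -6.72 and -7.35 on the log2 scale; MHC class II was a marker of the sort, so this is a check of the labels. After IC in LYVE1+CX3CR1+ macrophages 3 of the 7 were called, all lower, among them Cd74, the invariant chain, at 73.6, 97.0 and 87.6 CPM in controls and 23.1, 10.1 and 31.5 CPM after IC (log2 -2.01 ± 0.29, edgeR adjusted p = 0.00258). With limma-voom 0 of the 3 passed (adjusted p = 0.204 for Cd74, 0.196 for H2-Aa and 0.167 for H2-Eb1), and H2-Aa and H2-Eb1 also missed the threshold with only the groups compared (0.241 and 0.181). In MHCII+CD11c- macrophages Ciita, the class II counterpart of Nlrc5, fell from 214, 165 and 242 CPM to 65.0, 84.1 and 42.4 CPM (log2 -1.69, edgeR adjusted p = 0.0316), a call lost in 10 of 26 alternatives. Nlrc5 in the same libraries was at 109, 154 and 81.3 CPM in controls and at 153, 158 and 127 CPM after IC (log2 0.34 ± 0.29, edgeR adjusted p = 0.806). In MHCII+CD11c+ macrophages 0 of 7 class II genes were called by edgeR, and 0 had an unadjusted p under 0.05.

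The remaining lists held few calls. Of 4 genes of endoplasmic reticulum loading and folding, Hspa5, a chaperone, was lower in controls of the LYVE1+CX3CR1+ than of the MHCII+CD11c+ subset (log2 -0.46, edgeR adjusted p = 0.0449), a call lost in 9 of 26 alternatives, 8 of them with a library left out (up to 0.195), and none was called after IC by edgeR, with 1, 2 and 1 at an unadjusted p under 0.05 in the 3 subsets. Of 4 class I receptors of myeloid cells, 1, Lilra6, was lower in the same comparison (log2 -3.65, edgeR adjusted p = 0.00853; 0.0523 and 0.0535 without LYVE1+CX3CR1+ control 1 or 3).

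**Figure D5:**
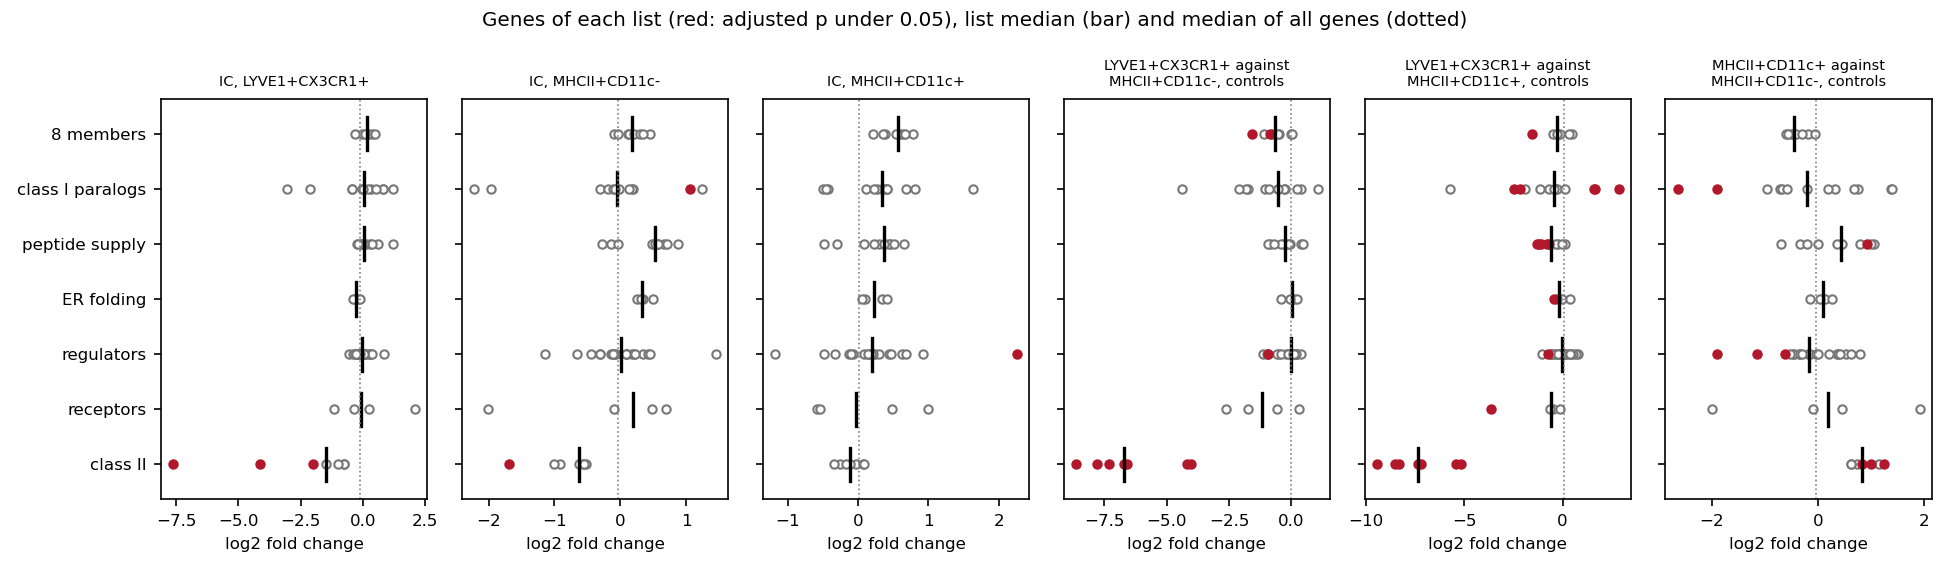
Log2 fold changes (horizontal axes, each panel with its own scale) of the 8 members and of the genes of 6 lists (rows), 1 point per tested gene, for the 3 IC contrasts and the 3 contrasts between subsets in controls, 1 panel per contrast; filled red points passed edgeR's adjusted threshold, the bar is the list median and the dotted line the median of all genes. The 8 members stayed within -1.59 and 0.79 in all panels, while class II medians reached -6.72 and -7.35 between LYVE1+CX3CR1+ and the MHCII+ subsets.

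The genes whose pattern over the 17 libraries was most like that of each member were taken by the root mean square difference of centred log2 CPM. For Tap1 these were Gbp5 (0.364), an interferon-induced guanylate-binding protein, Sdc3 (0.418) and Clec4a3 (0.458), where Tap1's own spread about its mean was 0.846. For Nlrc5 they were Clec2d (0.394), Naa25 (0.463) and Parp9 (0.469). For B2m they were Ets2 (0.190), Ap2m1 (0.195) and Slc36a1 (0.209). Among the members themselves H2-K1 and H2-D1 were closest (0.175), then H2-T23 and H2-D1 (0.237), and Tap1 stood farthest from any other member (0.520, to Nlrc5). These are descriptions over libraries that share groups and depth.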

How the data were processed

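Libraries were made from 5 ng of RNA with a stranded total RNA kit and sequenced in pairs. Per the labels, the authors trimmed reads with Trim Galore, checked them with FastQC, aligned them to mm10 (HISAT2) and summarised them by gene (featureCounts); versions, strand setting and treatment of multimapping reads are not given in the sources used here. The deposited values are raw counts per gene, and the table of each of the 17 libraries held the same values as the joint table. The joint table held 1 column that matched no sample, which was not used and summed to 0. The authors' methods name surrogate variable analysis for a batch that the labels do not give.

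Groups came from the labels. Genes were filtered with filterByExpr (minimum count 10), scaled by TMM and fitted over all 6 groups with edgeR 4.0.16 in R 4.3.3 (quasi-likelihood test, 11 residual degrees of freedom), and p-values were adjusted by the Benjamini-Hochberg method over 15272 genes, with a threshold of 0.05. The biological coefficient of variation was 45.1%. A total of 2301913 to 7248939 counts per library set the floor of 3 counts at 0.414 to 1.3 CPM. No pair of libraries within a group agreed within sampling noise. Levels between genes were compared per kb of merged exons (GENCODE M21; 97.5% of symbols matched), and ratios of members, added after seeing the levels, were described without a test.

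Alternatives were RLE scaling in edgeR in place of TMM, the DESeq2 1.42.0 test with its own size factors, no filter, and only the groups compared. Others were a replicate block, limma 3.58.1 voom with quality weights, sva 3.50.0 surrogate variables, equal depth and a length offset. H2-K1 and H2-D1 were also summed, and each library was left out. The members and lists were chosen with earlier results of these data known. All members were described in every library; from other lists up to 4 called genes per direction were named, with 3 nearest patterns per member computed. Scripts were tested on simulated data. Same-numbered libraries did not all correlate above 0.1 in their deviations from the group means, so the numbers were not treated as pairs.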

Additional observations from a re-analysis of the deposited data

How the results depend on the processing

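Of 1890 fold changes of the members under alternative settings, 1779 kept their direction and their side of the threshold, 6 lost a call, 23 gained one, 0 reversed and 82 changed sign while called in neither; the causes were not tested. Tap1 was called in all 26 alternatives that gave a value in both LYVE1+CX3CR1+ comparisons of controls (log2 -1.65 to -1.44 against MHCII+CD11c- and -1.70 to -1.39 against MHCII+CD11c+).

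Between LYVE1+CX3CR1+ and MHCII+CD11c- controls, where 2 members were called, 4 were called with DESeq2, with only the groups compared and with the replicate block, and 1 to 3 with a library left out (1 without any LYVE1+CX3CR1+ control or MHCII+CD11c- control 1 or 2). Calls over all genes also rose under DESeq2, only the groups compared and the replicate block, from 238 to 497, 527 and 376. Against MHCII+CD11c+, the single call became 2 with the replicate block, limma-voom and the length offset, and 1 to 2 with a library left out. Over all genes the calls went from 2326 to 2558 with the block, 3810 with limma-voom and 2260 with the length offset. Between the MHCII+ subsets 1 member was called with limma-voom and with the length offset, and 0 to 2 with a library left out. Over all genes the calls there went from 1323 to 1733 with limma-voom and 1309 with the length offset. After IC in MHCII+CD11c+ macrophages 0 to 1 were called with a library left out. In these last 3 comparisons the highest counts came without MHCII+CD11c+ control 2. After IC in the other subsets, and for the differences of responses, 0 members were called in every alternative run.

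Over all genes, edgeR's 147 calls after IC in LYVE1+CX3CR1+ ranged from 46 (limma-voom) to 646 (surrogate variables), and from 42 (without LYVE1+CX3CR1+ control 3) to 192 with a library left out. The 107 in MHCII+CD11c- ranged from 90 to 295, and from 29 (without its IC library 3) to 173. The 33 in MHCII+CD11c+ ranged from 9 to 97, and from 0 (without its IC library 1) to 104 (without its control 2). The 238 for the LYVE1+CX3CR1+ against the MHCII+CD11c- controls ranged from 180 to 977, and from 92 (without LYVE1+CX3CR1+ control 3) to 406. The calls in LYVE1+CX3CR1+ after IC were 23 higher and 124 lower with TMM, and 29 higher and 81 lower with RLE scaling in edgeR. RLE scaling also moved the all-gene median of the LYVE1+CX3CR1+ response differences from -0.16 to -0.03 and from -0.21 to -0.04.

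The replicate numbers did not meet the bar for pairing (every correlation of deviations from the group means above 0.1). Same-numbered libraries correlated at 0.0013 to 0.286 within a condition and at -0.153 to 0.0817 between control and IC. Between the MHCII+ controls each library correlated best with its own number (0.0796 to 0.286, against at most 0.0511), which is a hint of pairing. The library numbers in the titles also run through the subsets of each replicate number in turn. The titles do not say whether these libraries shared animals or a sort, so pairing within a condition stays possible. The block added H2-K1 (adjusted p = 0.0202) and Nlrc5 (0.00743) to the calls against MHCII+CD11c- controls, which went from 2 to 4, and B2m (0.0364) to those against MHCII+CD11c+ controls, which went from 1 to 2. Every member had at least 65 counts in every library, and MHCII+CD11c+ after IC had 2 libraries.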
